A study of Mus musculus with 3 samples.

Results

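Heat shock proteins are described here through 8 genes, Hspa1a, Hspa1b, Dnajb1, Hsph1, Hsp90aa1, Hspb1, Hspa8 and Hsp90ab1, which were found by their symbols among 31053 genes in single-cell libraries of mouse skin. The libraries came from C57BL/6 mice aged 7 weeks, in a study of hair growth with the agents metformin, Shi-Bi-Man and control, each given by 1 library. Expression was analysed in the metformin and the control libraries, and expression in the Shi-Bi-Man library was not analysed here. The labels state neither the dose, the route nor how many animals went into a library. All intervals below are at 95% and cover counting error only, since 1 library per agent allows no test between agents. UMIs (unique molecular identifiers) count captured RNA molecules, and levels are given as CPM, the UMIs of a gene per 1000000 UMIs of its cell class. The RNA was read at its 3′ end, so that a molecule gives at most 1 UMI whatever its length.

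Heat shock proteins are molecular chaperones that bind unfolded or damaged proteins and help them to refold or to be removed. Constitutive members such as Hspa8 and Hsp90ab1 are made in nearly every cell for everyday protein folding, whereas inducible members such as Hspa1a and Hspa1b are switched on by heat shock factor 1 (Hsf1) under heat, oxidative damage or other protein stress. Hspb1, a small heat shock protein, is known in skin for its abundance in differentiating epidermis. The 8 genes were therefore grouped by role as inducible (Hspa1a, Hspa1b, Dnajb1 and Hsph1), inducible with a basal level (Hsp90aa1 and Hspb1) and constitutive (Hspa8 and Hsp90ab1).

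The metformin library held 8817 cells after filtering, with a median of 5562 UMIs per cell, and the control library held 9681 cells with a median of 3557. 29 of 33 clusters were named from marker genes, which gave 18 classes with at least 50 cells in each library. 8 of these had at least 200 cells in each library and are called the main classes. The unnamed clusters held 8.13% of the metformin cells and 17.5% of the control cells. Clusters 2 (380 metformin and 849 control cells) and 4 (263 and 772) had fibroblast as their best type, but leading genes of other types left them unnamed. Dermal papilla-like cells lay mainly in different clusters, with 90.1% of the metformin cells in cluster 20 and 88.6% of the control cells in cluster 18. 41 cell barcodes occurred in both libraries, and 27 of them were kept in both.

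All 8 transcripts were found in every one of the 18 classes in both libraries. Over all cells, Hsp90ab1 had 79025 UMIs in metformin and 60972 in control, Hspb1 had 66273 and 66048, Hspa8 had 52241 and 45554, and Hsph1, the rarest, had 1299 and 1467. The members differed in how much their level depended on the cell class. Between the class with the highest and the class with the lowest level (geometric means of both libraries), Hspa1a spanned 7.99-fold, Hsp90aa1 7.28-fold, Dnajb1 5.41-fold, Hsph1 4.30-fold, Hspa1b 3.70-fold, Hspa8 3.37-fold and Hsp90ab1 2.53-fold. Hspb1 had the widest span, but its lowest levels may hold free RNA and no fold is given. In the order of the classes, neighbours often overlapped when the values of both libraries were taken as their spread, in 10 of 17 neighbouring pairs for Hspb1, 11 for Hsp90ab1, 12 for Hspa8 and 14 to 16 for the others.

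**Figure D1:**
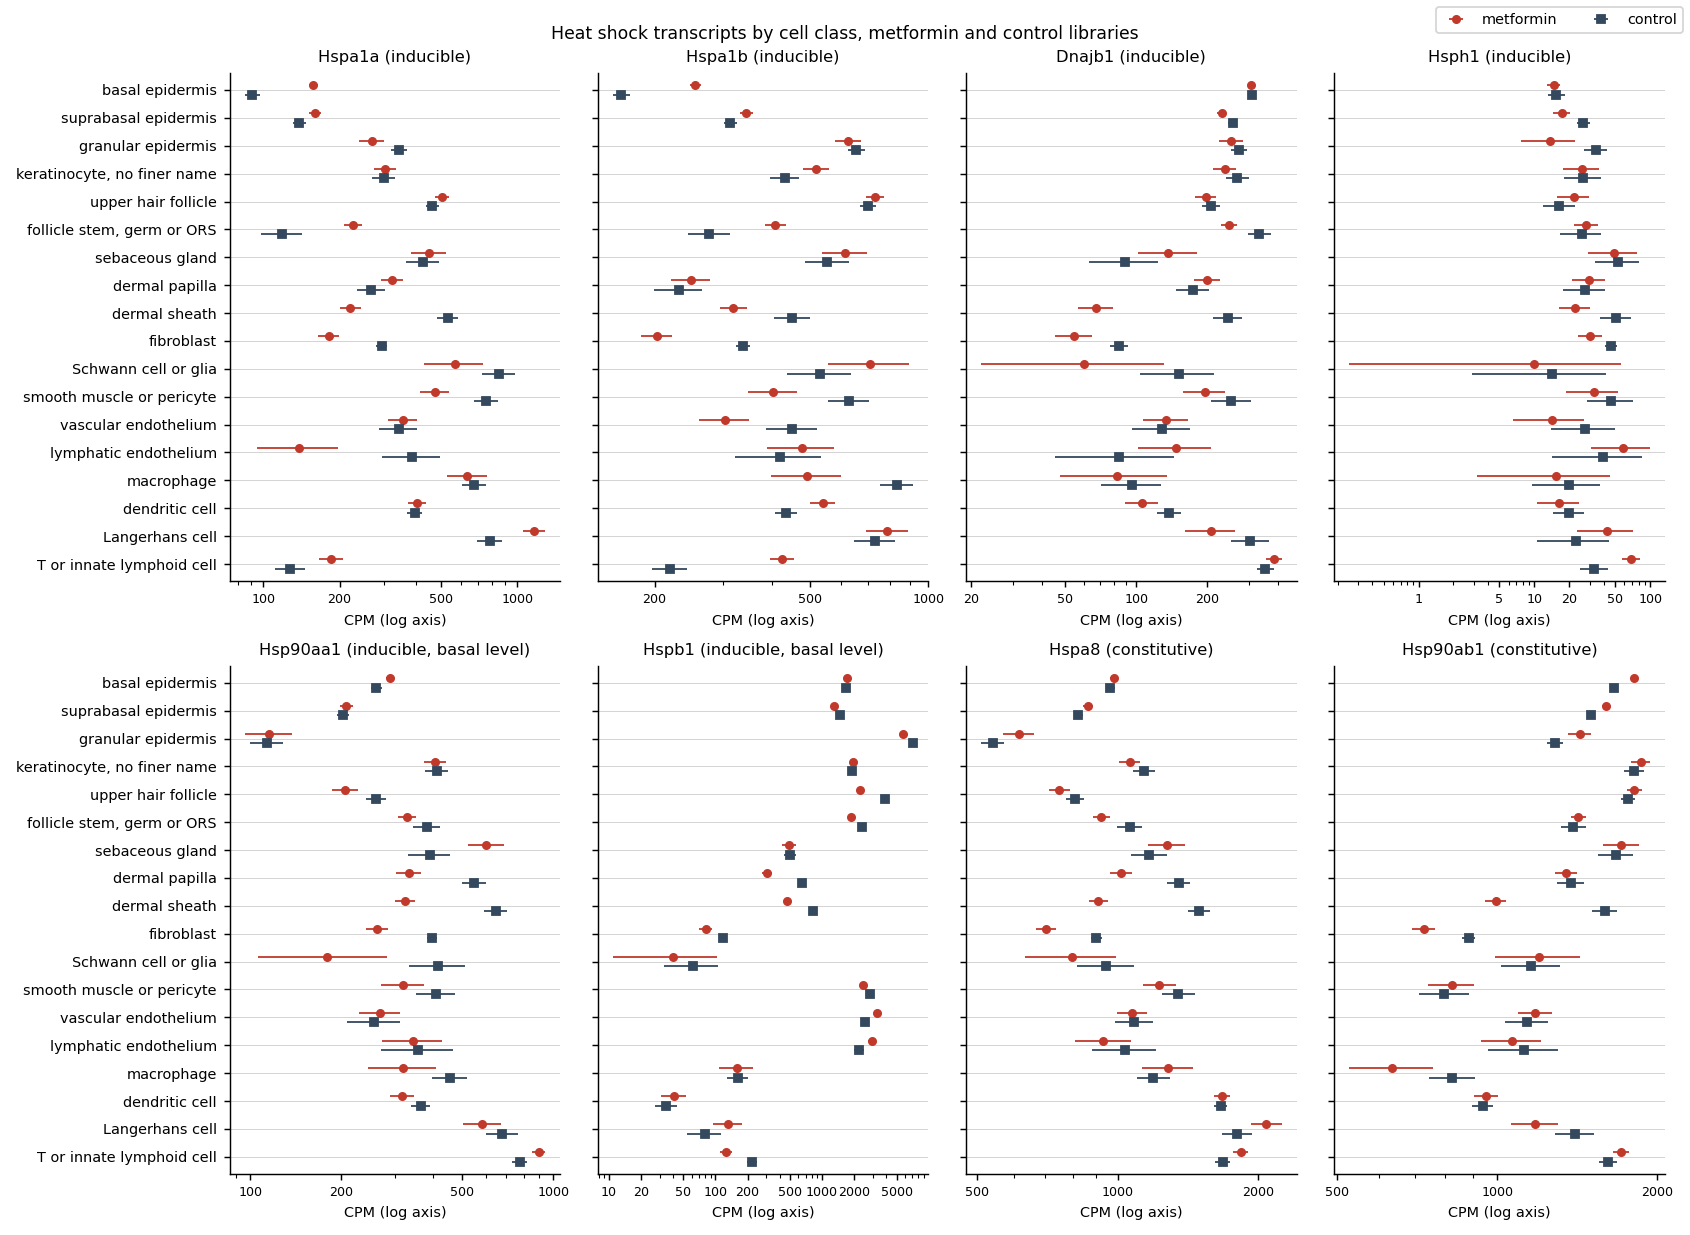
Levels (CPM, log axes) of the 8 heat shock transcripts in 18 cell classes, with red circles for the metformin library and dark squares for the control library. Bars are 95% Poisson intervals, Hspb1 reaches from 37.4 CPM in dendritic-like cells to 6399 CPM in granular epidermis-like cells (geometric means), and Hsp90ab1 stays between 724 and 1833 CPM.

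Hspa1a and Hspa1b encode nearly the same stress-inducible HSP70 protein. Hspa1a (ENSMUSG00000091971) lies on chromosome 17 at 34969190 to 34972156 and Hspa1b (ENSMUSG00000090877) at 34956436 to 34959238, both on the minus strand of GRCm38 and 9951 bases apart. Of their 50-base stretches, 58.8% of those of Hspa1a and 62.3% of those of Hspa1b occur in the other transcript, but none of those in the last 500 bases do, which is the end that the assay reads. Reads near the 3′ ends can therefore tell the copies apart, while reads from elsewhere in the transcript may not. The promoters printed here, from RefSeq on GRCm38.p6, are the 250 bases before each start, 5′ to 3′ on the strand of the gene, for the pair of copies, which are nearly alike, and for Hspb1, which carries more of the motif. Capitals mark an inverted pair of the heat shock element unit GAA, in which GAA and TTC stand in either order with any 2 bases between them, so that a pair is found alike on both strands.
Hspa1a, chr17:34972157-34972406, minus strand: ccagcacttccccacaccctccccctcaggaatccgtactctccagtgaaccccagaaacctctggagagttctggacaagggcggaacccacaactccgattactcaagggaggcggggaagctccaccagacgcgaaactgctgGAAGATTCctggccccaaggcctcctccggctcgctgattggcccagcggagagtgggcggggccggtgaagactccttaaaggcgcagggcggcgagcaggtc
Hspa1b, chr17:34959239-34959488, minus strand: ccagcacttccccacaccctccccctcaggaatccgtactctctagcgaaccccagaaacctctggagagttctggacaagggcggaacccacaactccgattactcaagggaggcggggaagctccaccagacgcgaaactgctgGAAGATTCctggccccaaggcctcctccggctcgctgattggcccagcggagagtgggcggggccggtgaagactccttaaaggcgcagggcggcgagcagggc
Hspb1, chr5:135887669-135887918, plus strand: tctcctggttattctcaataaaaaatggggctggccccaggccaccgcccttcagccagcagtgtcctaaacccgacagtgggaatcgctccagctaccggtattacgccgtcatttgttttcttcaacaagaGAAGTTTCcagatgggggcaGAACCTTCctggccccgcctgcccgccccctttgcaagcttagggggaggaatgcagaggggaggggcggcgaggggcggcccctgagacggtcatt

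The Hspa1a and Hspa1b promoters differed at 3 of these 250 bases (98.8% identity), and both carried GAAGATTC from position -104. Hspb1 carried GAAGTTTC from position -117 and GAACCTTC from position -97. In Hsph1 the pair TTCTCGAA began at position -33 of one RefSeq start and -54 of another, and no pair stood in either listed stretch of Dnajb1. The second Dnajb1 stretch, 83608298 to 83608547, lies inside the gene (83608193 to 83612653), so it does not describe bases upstream of the gene. Both Hsph1 stretches overlap the 5′ end of the gene and may hold transcribed bases. Among all 32851 RefSeq promoters, cut to the same 250 bases, 12.8% held such a pair. A match of letters describes the sequence and was not tested as a binding site. Promoters of Hsp90aa1, Hspa8 and Hsp90ab1 were not analysed here.

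Hspa1a was highest in Langerhans-like cells, the dendritic cells of the epidermis, with 1167 CPM in metformin and 779 CPM in control. Schwann or glia-like cells followed with 569 and 846 CPM, and macrophage-like cells with 635 and 678 CPM. By the geometric mean of both libraries the lowest level was in basal epidermis-like cells, with 157 CPM in metformin and 90.5 CPM in control. T or innate lymphoid-like cells stood near the end of the order with 185 and 128 CPM, so that immune classes did not form one group. Hspa1b was likewise highest in Langerhans-like cells (786 CPM in metformin and 731 CPM in control) and, by the geometric mean, lowest in basal epidermis-like cells (254 and 165 CPM). Its second place went to upper hair follicle-like cells with 730 and 702 CPM, against 506 and 464 CPM of Hspa1a, so that the copies did not keep one ratio across classes. Lymphocytes of the T or innate lymphoid class had more of Hspa1b, 423 CPM in metformin and 219 CPM in control, above the levels of Hspa1a in both libraries.

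Dnajb1 (ENSMUSG00000005483, chromosome 8, 83608193 to 83612653) encodes an HSP40 co-chaperone that hands clients to HSP70. It was highest in T or innate lymphoid-like cells (382 CPM in metformin and 352 CPM in control) and next in basal epidermis-like cells (305 and 309 CPM), where Hspa1a and Hspa1b were lowest. Fibroblast-like cells had the lowest level, with 54.5 CPM in metformin and 84.3 CPM in control. The order of the classes was therefore unlike that of the HSP70 pair, with a Pearson correlation of log2(CPM + 10) of -0.28 with Hspa1a and -0.11 with Hspa1b over 36 points (18 classes in each library, so that points of a class share its cells' identity). Hsph1 (ENSMUSG00000029657, chromosome 5, 149614287 to 149636376), an HSP110 protein that recharges HSP70 with ATP, was scarce throughout. It lay between 9.98 CPM in Schwann or glia-like cells and 68.7 CPM in T or innate lymphoid-like cells in metformin, and between 14.2 CPM in Schwann or glia-like cells and 53.1 CPM in sebaceous gland-like cells in control. A UMI of it was seen in 9.54% of the metformin and 5.73% of the control T or innate lymphoid-like cells.

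Hsp90aa1 (ENSMUSG00000021270, chromosome 12, 110690605 to 110702728), the inducible cytosolic HSP90, led in T or innate lymphoid-like cells with 895 CPM in metformin and 775 CPM in control. It was lowest in granular epidermis-like cells, with 115 CPM in metformin and 114 CPM in control. These classes did not overlap with their neighbours when the metformin and control values were taken as the spread. Its order over the classes was most like that of constitutive Hspa8 among the members (r = 0.84 over the 36 points).

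Hspb1 (ENSMUSG00000004951, chromosome 5, 135887919 to 135889563) had the widest range. Granular epidermis-like cells had 5780 CPM in metformin and 7085 CPM in control, above every other class in both libraries. Vascular endothelium-like cells (3286 and 2512 CPM), lymphatic endothelium-like cells (2933 and 2229 CPM) and vascular smooth muscle or pericyte-like cells (2405 and 2794 CPM) came next with upper hair follicle-like cells (2280 and 3908 CPM). An upper group of vascular classes and of all epithelial classes but the sebaceous gland ended with suprabasal epidermis-like cells at 1309 CPM in metformin and 1467 CPM in control. Dermal sheath-like cells (471 and 818 CPM) opened a lower group, sebaceous gland-like cells (487 and 502 CPM) came next, and dendritic-like cells closed it at 40.5 CPM in metformin and 34.6 CPM in control. In dendritic-like cells 11.1% of metformin cells (median 4068 UMIs) and 11.5% of control cells (median 4764 UMIs) had an Hspb1 UMI, against 100% and 99.1% of granular epidermis-like cells (medians 9768 and 10139 UMIs). Free RNA from other cells can give such low shares in droplets, and none of the 18 classes is known to lack the transcript, so levels of this size were not read as expression. The same limit holds for low shares of the other members. Ratios between the libraries are still given below where levels were low, as for Hspb1 in T or innate lymphoid-like and fibroblast-like cells. Free RNA may be part of those ratios. Across libraries the class levels of Hspb1 had the highest correlation of the members, with r = 0.98 over 18 classes on the log scale, against 0.57 for Hsph1 and 0.68 for Hspa1b. Such a value rises with the span of the levels, which was widest for Hspb1 and includes its low levels. Within a class the libraries could still differ, as in upper hair follicle-like cells with 2280 CPM in metformin and 3908 CPM in control.

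Hspa8 (ENSMUSG00000015656, chromosome 9, 40800984 to 40810087), the constitutive HSP70 that also strips clathrin from vesicles, was highest in immune classes other than macrophage-like cells (1281 CPM in metformin and 1193 CPM in control). Langerhans-like cells had 2086 CPM in metformin and 1803 CPM in control, T or innate lymphoid-like cells 1836 and 1679 CPM, and dendritic-like cells 1672 and 1663 CPM. Granular epidermis-like cells had the lowest level, with 613 and 539 CPM. Hsp90ab1 (ENSMUSG00000023944, chromosome 17, 45567775 to 45573271), the constitutive HSP90, was instead highest in some keratinocyte classes, with 1860 and 1807 CPM in keratinocyte-like cells without a finer name, 1810 and 1763 CPM in upper hair follicle-like cells and 1805 and 1659 CPM in basal epidermis-like cells. T or innate lymphoid-like cells (1709 and 1614 CPM) stood above suprabasal epidermis-like (1603 and 1499 CPM) and granular epidermis-like cells (1428 and 1285 CPM). Macrophage-like cells had the lowest level with 635 CPM in metformin and 824 CPM in control. The constitutive HSP70 and HSP90 genes thus had different orders, with a correlation of -0.07 over the 36 points.

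Set against each other, inducible UMIs (Hspa1a, Hspa1b, Dnajb1 and Hsph1) were fewer than constitutive UMIs (Hspa8 and Hsp90ab1) in every class and library. This ratio is taken within a library and needs no scaling between libraries. Per 100 constitutive UMIs, inducible UMIs ranged between 26.2 and 67.5 in metformin and between 22.1 and 80.7 in control over the 18 classes with at least 50 cells in each library. The hair matrix and inner sheath class, left out with 903 metformin but 18 control cells, had 23.5 (22.8 to 24.2) in metformin. Macrophage-like cells had 63.9 (54.0 to 75.4) in metformin and 80.7 (73.4 to 88.5) in control. Schwann or glia-like cells had 67.5 (53.9 to 84.4) and 73.3 (63.3 to 84.7), and Langerhans-like cells had 67.4 (61.3 to 74.2) and 57.3 (52.2 to 62.9). Basal epidermis-like cells were at the other end, with 26.2 (25.7 to 26.8) in metformin and 22.1 (21.5 to 22.7) in control, followed by T or innate lymphoid-like cells with 29.9 (28.4 to 31.5) and 22.2 (20.8 to 23.6). Among the epithelial classes the ratio was highest in granular epidermis-like and upper hair follicle-like cells, with 56.7 (52.9 to 60.8) and 71.6 (68.3 to 75.1), and 56.8 (54.3 to 59.5) and 54.0 (51.8 to 56.3). In metformin the ratio was higher than in control in 9 of the 18 classes and lower in 9, with intervals apart in 4 of each. Vascular smooth muscle or pericyte-like cells were among those with intervals apart, with 53.8 (48.4 to 59.9) in metformin and 78.4 (71.0 to 86.5) in control. The ratio depended on the processing by more than these intervals show. Of 246 values under alternative processing, 177 lay within the interval of the value given and 69 outside it. Of those outside, 21 came without the 1% of cells with the most heat shock UMIs and 18 as a mean over cells.

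**Figure D2:**
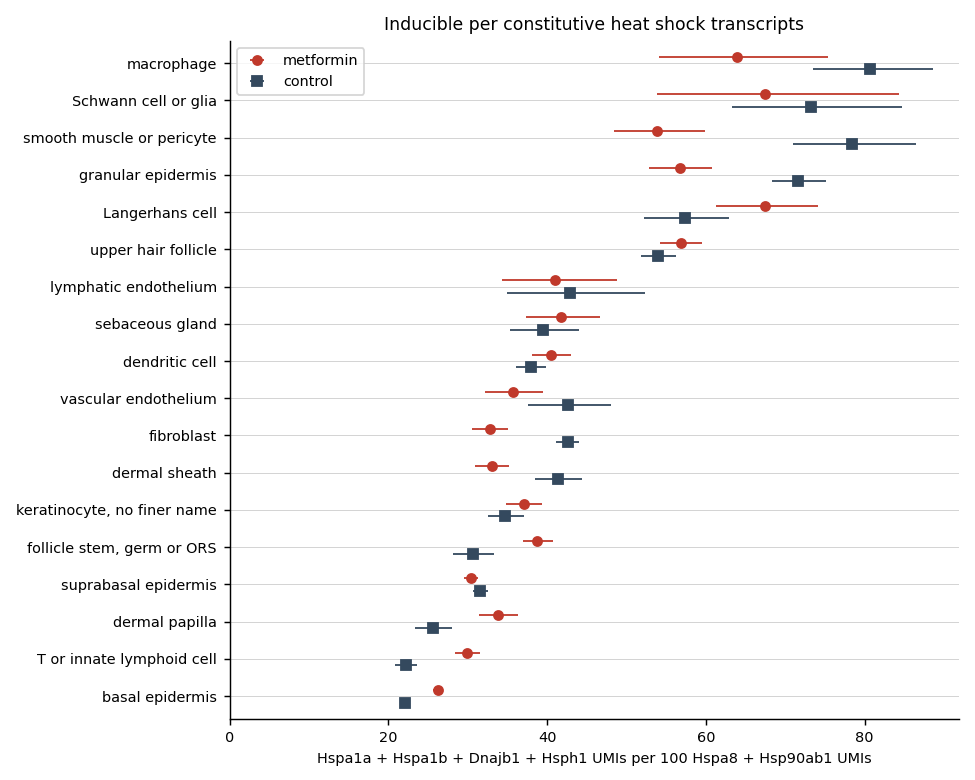
UMIs of the 4 inducible members per 100 UMIs of the 2 constitutive members in 18 cell classes, ordered by the mean of both libraries, with red circles for metformin, dark squares for control and bars for 95% intervals. Basal epidermis-like cells are lowest with 26.2 in metformin and 22.1 in control, and macrophage-like cells have 63.9 and 80.7.

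The epidermis held members that ran in opposite directions. Clusters 0 (basal), 3 (suprabasal, led by Krt1 and Krt16), 10 (suprabasal, with Krtdap and Krt10 among its leading genes) and 17 (granular, led by Lor and Flg) were put in this order by those genes. Hspa1b had 226, 315, 413 and 624 CPM along these clusters in metformin, and 155, 260, 384 and 656 CPM in control. Hspa8 had 953, 895, 786 and 613 CPM in metformin, and 948, 885, 739 and 539 CPM in control. The inducible HSP70 was thus higher and the constitutive HSP70 lower in each further cluster, in both libraries. Hsp90aa1 followed Hspa8 in its direction, with 255, 224, 166 and 115 CPM in metformin and 239, 220, 179 and 114 CPM in control. Hspb1 was lower in the first suprabasal cluster than in basal cells and far higher in the granular cluster, with 1847, 1100, 1832 and 5780 CPM in metformin and 1768, 1074, 2007 and 7085 CPM in control. Dnajb1 was highest in the basal cluster, with 314, 238, 209 and 252 CPM in metformin and 323, 274, 232 and 273 CPM in control.

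**Figure D3:**
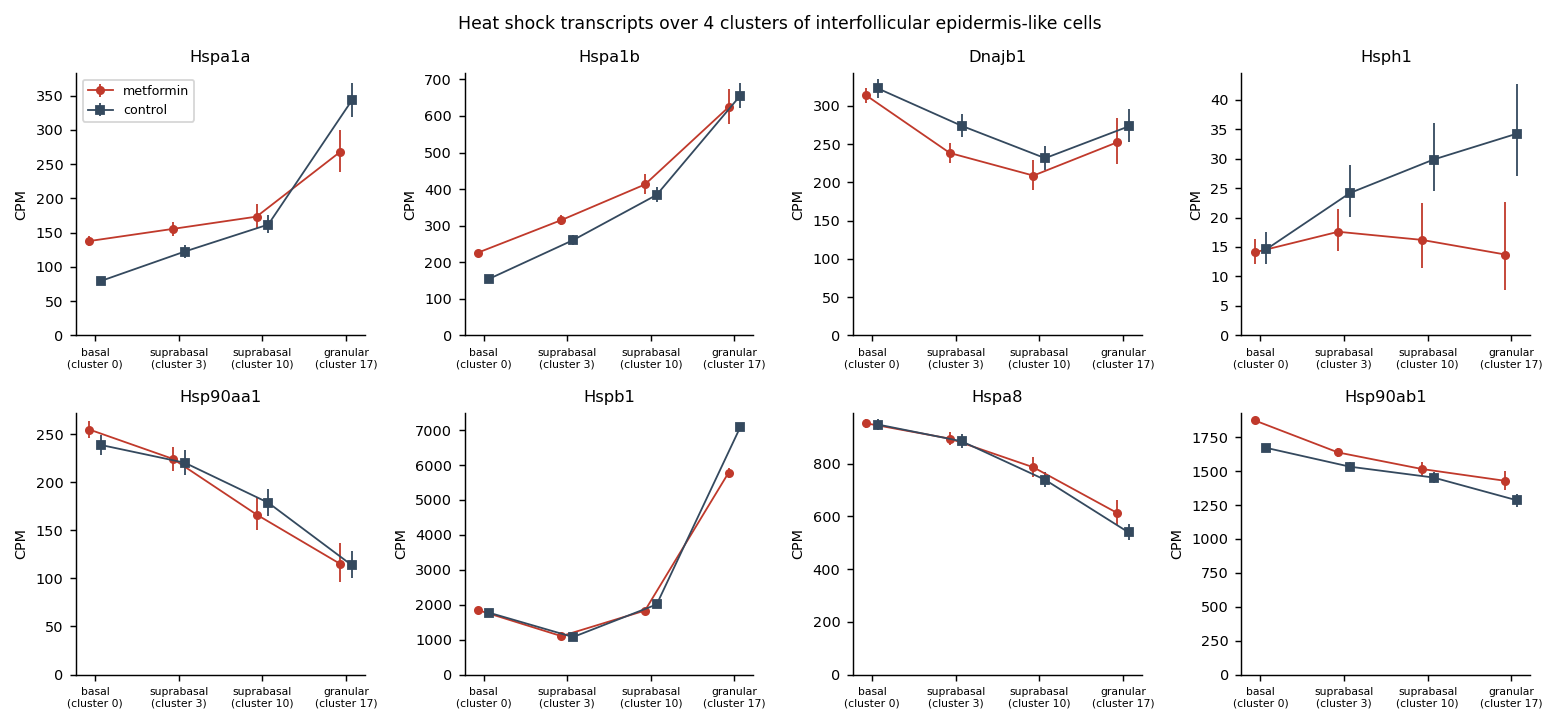
Levels (CPM) of the 8 transcripts in 4 clusters of epidermis-like cells ordered from basal to granular, with red circles for metformin, dark squares for control and bars for 95% Poisson intervals. Hspb1 reaches 5780 CPM in metformin and 7085 CPM in control in the granular cluster, while Hspa8 is lowest there at 613 and 539 CPM.

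Dividing basal cells (cluster 15, led by Ube2c, Cdk1 and Cenpf) differed from the other basal cells (cluster 0). Hsp90aa1 had 425 CPM in dividing and 255 CPM in other basal cells in metformin, a ratio of 1.67 (1.56 to 1.78), and 390 and 239 CPM in control, a ratio of 1.63 (1.48 to 1.80). Hspa1a was also higher in dividing cells, by 1.73-fold (1.58 to 1.90) in metformin and 1.96-fold (1.68 to 2.30) in control. Hspb1 was lower, with ratios of 0.65 (0.627 to 0.674) in metformin and 0.683 (0.649 to 0.719) in control. The members had taken no part in the clustering, but a comparison between clusters is a description and was not tested.

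Metformin was then compared with control in the 8 main classes. Genes were counted as past the limit when their level differed by at least 1.5-fold and they had at least 100 UMIs in both libraries together, the same rule being applied to all genes as background. The summed inducible members were past the limit, and lower in metformin, in fibroblast-like and dermal sheath-like cells. In T or innate lymphoid-like and basal epidermis-like cells their ratio was above 1 but short of 1.5-fold. In metformin over control their ratio was 1.45 (1.35 to 1.56) in T or innate lymphoid-like cells, 1.26 (1.22 to 1.30) in basal epidermis-like cells, 0.617 (0.577 to 0.659) in fibroblast-like cells and 0.492 (0.453 to 0.534) in dermal sheath-like cells. In the other 4 main classes it lay between 1.02 and 1.14. The summed constitutive members varied less, with ratios of 1.08 (1.04 to 1.12), 1.06 (1.04 to 1.08), 0.802 (0.771 to 0.834) and 0.616 (0.586 to 0.648) in the same 4 classes. The median log2 ratio of all genes lay within 0.1 of 0 in every main class. These intervals treat UMIs as independent, and a sum that rests on few cells is less certain than they show.

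**Figure D4:**
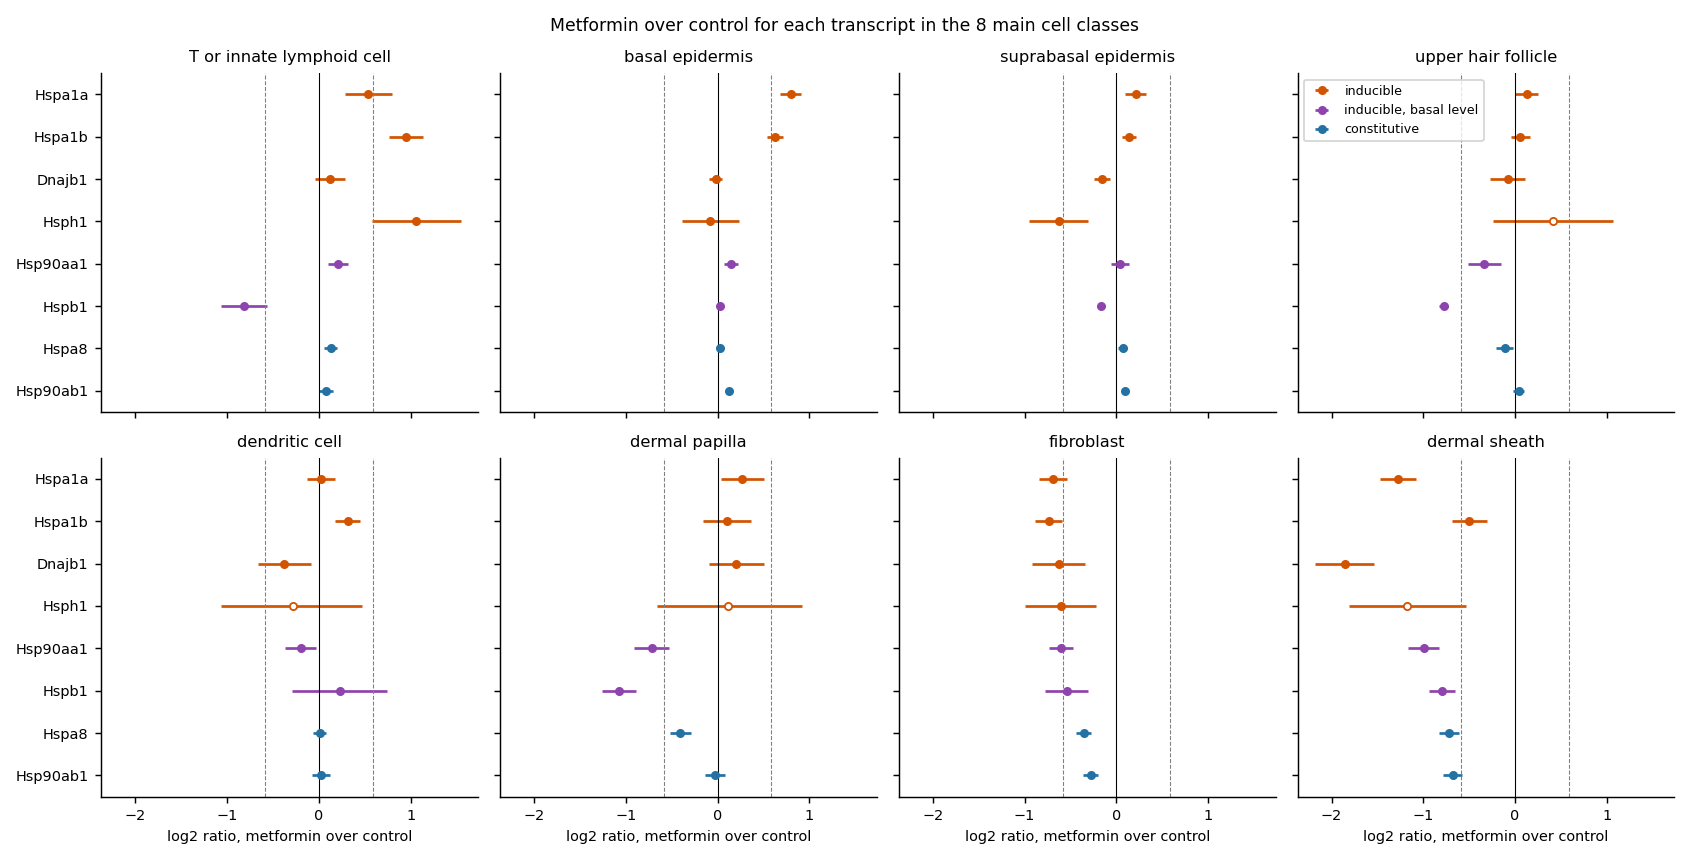
Log2 ratio of metformin over control for each transcript in the 8 main cell classes, with 95% intervals for counting error, coloured by role. Dashed lines stand at 1.5-fold, open circles had under 100 UMIs in both libraries together, and dermal sheath-like cells lie furthest to the left, with Dnajb1 at a ratio of 0.276.

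In T or innate lymphoid-like cells, 2 of 8 members were at least 1.5-fold higher in metformin, against 3.53% of all genes tested there, and 1 was lower, against 4.36%. Hspb1 was the lower one, with 125 CPM in metformin and 221 CPM in control, a ratio of 0.568 (0.478 to 0.674). That value rested on few cells, since the 1% of cells with the most Hspb1 gave 62.1% of its UMIs in metformin and 54.0% in control, and its direction turned in cluster 14 alone (1.88, 1.36 to 2.62). Hspa1b had 423 CPM in metformin and 219 CPM in control, a ratio of 1.94 (1.70 to 2.20). Hsph1 had 68.7 and 33.0 CPM, a ratio of 2.08 (1.498 to 2.93) from 120 and 54 UMIs. Hspa1a had a ratio of 1.45 (1.22 to 1.74), and Dnajb1 of 1.09 (0.970 to 1.22). The value of Dnajb1 joined opposite directions, with 1.46 (1.27 to 1.67) in cluster 7 and 0.657 (0.526 to 0.820) in cluster 14. The inducible sum was higher in cluster 7, led by Trdc and Cd3e, by 1.63-fold (1.48 to 1.80), and in cluster 14, led by Il17a and Icos, by 1.21-fold (1.08 to 1.36). Inducible transcripts were unevenly spread, as 10.3% of metformin and 8.76% of control cells had an Hspa1a UMI, and the top 1% of cells held 32.1% and 55.0% of these UMIs. All 6 cell division genes that could be tested were at least 1.5-fold higher in metformin in this class, and their part in the result was not tested.

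In basal epidermis-like cells, Hspa1a and Hspa1b were at least 1.5-fold higher in metformin and no member was lower, against 2.40% and 1.65% of all genes tested. Hspa1a had 157 CPM in metformin and 90.5 CPM in control, a ratio of 1.74 (1.61 to 1.88). Hspa1b had 254 and 165 CPM, a ratio of 1.54 (1.46 to 1.64). The other 6 members had ratios between 0.947 and 1.11, so that within this class the HSP70 pair stood apart from Dnajb1 (0.986, 0.940 to 1.03) and Hsph1 (0.947, 0.764 to 1.18). Dividing cells made up more of the class in metformin (340 of 2003 cells) than in control (157 of 1210), and 11 of 15 cell division genes were at least 1.5-fold higher. In cluster 0, which leaves the dividing cells out, the ratio of Hspa1a was 1.73 (1.58 to 1.90) and that of Hspa1b was 1.46 (1.36 to 1.56), short of 1.5-fold, as it also was with the members allowed in the clustering (log2 ratio 0.57).

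In fibroblast-like cells all 8 members were below a ratio of 1, and 5 of 8 were at least 1.5-fold lower, against 4.60% of all genes tested (3.18% were higher, with no member among them). These 5 were the 4 inducible members and Hsp90aa1, and none of them was past the limit under every alternative processing. Hspa1a had 182 CPM in metformin and 293 CPM in control, a ratio of 0.62 (0.556 to 0.690), and Hspa1b had 202 and 337 CPM, a ratio of 0.601 (0.542 to 0.665). Dnajb1, Hsph1 and Hsp90aa1 had ratios between 0.647 and 0.66. Constitutive members were lower by less, with 0.781 (0.738 to 0.825) for Hspa8 and 0.823 (0.779 to 0.870) for Hsp90ab1. The inducible sum was below control in each of the 3 clusters of the class, with ratios of 0.672 (0.610 to 0.738) in cluster 1, 0.573 (0.4999 to 0.656) in cluster 5 and 0.536 (0.468 to 0.614) in cluster 13. It was also below control in the unnamed fibroblast-related clusters, at 0.603 (0.556 to 0.653) in cluster 2 and 0.738 (0.682 to 0.798) in cluster 4. With separate clustering of the libraries the log2 ratio was -0.50 for Hspa1b, -0.46 for Dnajb1, -0.50 for Hsph1, -0.56 for Hsp90aa1 and -0.54 for the inducible sum, and as a mean over cells it was -0.45 for Hspa1a and -0.49 for the sum, all short of 1.5-fold. Hspb1 in control fibroblast-like cells rested on few cells, as 45.8% of its UMIs came from the top 1% and 1 cell held 102. Its log2 ratio of -0.54 lay between -0.67 and 0.078 under the alternatives, so that its direction was not kept in all of them.

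Dermal sheath-like cells, a contractile layer around the follicle named here from Acta2, Tagln, Mylk, Tnmd, Col11a1 and Lrrc15, had the lowest ratio of the inducible sum. All 8 members were below 1, and 6 of the 7 that could be tested were at least 1.5-fold lower, in a class where 17.1% of all genes tested were lower and 14.8% higher. Dnajb1 had 67.2 CPM in metformin and 244 CPM in control, a ratio of 0.276 (0.220 to 0.345). Hspa1a had 220 and 533 CPM, a ratio of 0.413 (0.361 to 0.473), and Hsp90aa1 had 325 and 647 CPM, a ratio of 0.502 (0.447 to 0.564). Unlike in fibroblast-like cells, the constitutive members were also past 1.5-fold, with 0.608 (0.565 to 0.654) for Hspa8 and 0.624 (0.582 to 0.670) for Hsp90ab1. With separate clustering both fell short of it, at log2 ratios of -0.54 for Hspa8 and -0.51 for Hsp90ab1, and Hsp90ab1 also did with a wider cell filter (-0.51). Hspa1b was lower by less, with 318 and 450 CPM and a ratio of 0.708 (0.622 to 0.807). The class is 1 cluster in which the metformin cells had a median of 5472 UMIs and the control cells of 3326.

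Dermal papilla-like cells had 2 of 7 tested members at least 1.5-fold lower, Hspb1 (306 CPM in metformin and 644 CPM in control, ratio 0.475, 0.416 to 0.542) and Hsp90aa1 (334 and 549 CPM, ratio 0.608, 0.532 to 0.695). In this class 13.3% of all genes tested were lower and 19.6% higher, and the libraries' cells lay in different clusters, so that a difference between agents and one between clusters cannot be told apart. In upper hair follicle-like cells Hspb1 was the only 1 of 7 tested members past 1.5-fold, with 2280 CPM in metformin and 3908 CPM in control and a ratio of 0.583 (0.563 to 0.604). There 3.95% of all genes tested were lower and 2.68% higher. In suprabasal epidermis-like cells only Hsph1 was past 1.5-fold, with 17.2 and 26.6 CPM and a ratio of 0.647 (0.519 to 0.805), against 2.27% of all genes lower and 1.77% higher. As a mean over cells its log2 ratio was -0.56, and with doublets kept also -0.56, both short of 1.5-fold. None of the 7 tested members was past 1.5-fold in dendritic-like cells, where 5.87% of all genes were lower and 2.22% higher, and Hspa1b had a ratio of 1.24 (1.13 to 1.37). Its log2 ratio of 0.31 became -0.32 with separate clustering and 0.56 as a mean over cells.

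Other genes of the heat shock and neighbouring pathways were read from lists. Of 18 further genes that respond to Hsf1, 3 of 18 tested were at least 1.5-fold lower and none higher in fibroblast-like cells, where 4.60% of all genes were lower, with a median log2 ratio of -0.13 against 0.03 for all genes. Their lowest ratios among all main classes were those of Bag3, an HSP70 co-chaperone, with 44.9 CPM in metformin and 145 CPM in control in dermal papilla-like cells and 35.6 and 108 CPM in dermal sheath-like cells. In dermal sheath-like cells, where 17.1% of all genes were lower and 14.8% higher, 5 of 15 were lower and 2 higher, and the higher ones were Cryab, a small heat shock protein (303 CPM in metformin and 151 CPM in control), and Serpinh1, the collagen chaperone of the endoplasmic reticulum (2047 and 1084 CPM, ratio 1.89, 1.76 to 2.03). In dermal papilla-like cells 3 of 16 were lower and 1 higher, against 13.3% and 19.6% of all genes. In T or innate lymphoid-like cells 1 of 13 was higher and none lower, against 3.53% and 4.36% of all genes, and 8 were below 1. In basal epidermis-like cells none of 16 was past 1.5-fold, against 2.40% of all genes higher and 1.65% lower, and 9 were above 1. The summed UMIs of the 18 genes gave a ratio and an interval below 1 in all 8 main classes. This summed ratio was 0.976 (0.956 to 0.996) in T or innate lymphoid-like cells and 0.978 (0.966 to 0.990) in basal epidermis-like cells.

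The heat shock factors themselves were scarce, and of 4 listed genes Hsf1, Hsf2 and the regulator Hsbp1 could be tested in at least some main classes, with none past 1.5-fold. At most 3 were tested in a class. Of all genes, 1.77% to 19.6% were higher and 1.65% to 17.1% lower, depending on the main class. Hsf1 had 16.6 CPM in both libraries in fibroblast-like cells, and 19.3 CPM in metformin and 18.0 CPM in control in basal epidermis-like cells. Hsbp1, which binds heat shock factor trimers, ranged from a ratio of 0.953 (0.888 to 1.02) in suprabasal epidermis-like cells to 1.48 (1.23 to 1.78) in dermal sheath-like cells. Of 11 co-chaperones, only Dnajc7 was past 1.5-fold in a main class (1.85, 1.25 to 2.77, from 100 and 37 UMIs in dermal papilla-like cells). There 1 of 7 tested co-chaperones was higher, against 19.6% of all genes, and the libraries' cells lay mainly in different clusters. The lowest co-chaperone was Dnaja2 in dendritic-like cells (0.673, 0.531 to 0.849). Among 11 other HSP70, HSP110 and HSP90 genes none was at least 1.5-fold higher in any main class. In suprabasal epidermis-like cells all 9 tested were below 1 and 2 were at least 1.5-fold lower, against 2.27% of all genes. In fibroblast-like cells 2 of 10 were lower, against 4.60%, and in upper hair follicle-like cells 1 of 6, against 3.95%. In dermal papilla-like cells 1 of 4 was lower, against 13.3%, and in dermal sheath-like cells 1 of 3, against 17.1%. Hyou1 in fibroblast-like cells (0.562, 0.410 to 0.757) and Hspa5 in dermal sheath-like cells (0.569, 0.511 to 0.633), both chaperones of the endoplasmic reticulum, were lowest. The highest was Trap1, the mitochondrial HSP90, in upper hair follicle-like cells (40.8 CPM in metformin and 27.2 CPM in control). Of 8 other small heat shock proteins, at most 4 could be tested in a class, and Hspb8, a partner of Bag3, was lowest in fibroblast-like cells with 69.4 and 127 CPM (0.545, 0.457 to 0.647). In that class 3 of 4 tested were above 1, and 1 was at least 1.5-fold lower, against 4.60% of all genes. In dermal sheath-like cells 3 of 3 were above 1, and 2 were at least 1.5-fold higher, against 14.8% of all genes. In upper hair follicle-like cells 2 of 2 were below 1, and 1 was at least 1.5-fold lower, against 3.95% of all genes.

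The unfolded protein response of the endoplasmic reticulum, a separate stress pathway, had a median log2 ratio below 0 in all 8 main classes. In fibroblast-like cells all 15 tested genes of its 16 were below a ratio of 1 and 3 were at least 1.5-fold lower (4.60% of all genes were), with a median of -0.30. In basal epidermis-like cells, where the HSP70 pair was higher, 13 of 15 were below 1, 1 was at least 1.5-fold lower (1.65% of all genes were) and the median was -0.24. The lowest was Dnajb9, an HSP40 of the endoplasmic reticulum, in dermal sheath-like cells (0.299, 0.214 to 0.416), and the highest was Sdf2l1 in T or innate lymphoid-like cells (1.41, 1.13 to 1.75). Immediate early genes such as Fos, Jun and Atf3, which many stimuli induce within minutes and which also respond when tissue is dissociated into single cells were read beside the heat shock members. All 17 were below 1 and 10 were at least 1.5-fold lower in fibroblast-like cells (median log2 ratio -0.64), and 15 of 16 were lower in dermal sheath-like cells (median -1.30). The share of all genes lower by this rule was 4.60% in fibroblast-like and 17.1% in dermal sheath-like cells. Their summed ratio was 0.698 (0.689 to 0.707) in fibroblast-like and 0.451 (0.441 to 0.462) in dermal sheath-like cells, against 1.08 (1.06 to 1.09) in T or innate lymphoid-like and 0.957 (0.951 to 0.963) in basal epidermis-like cells. Atf3 in dermal sheath-like cells was lowest, with 102 CPM in metformin and 513 CPM in control, and Jun in dendritic-like cells highest, with 537 and 345 CPM. The part of this response in the result was not tested.

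The relation was then followed within single cells thinned to 1500 UMIs, by splitting the cells of each main class and library into terciles of immediate early UMIs. Cells with fewer than 1500 UMIs were left out, so that 1889 of 2394 control fibroblast-like cells and 592 of 681 metformin T or innate lymphoid-like cells entered. The high tercile held more inducible UMIs per cell than the low tercile in 16 of 16 class and library pairs, by a median of 3.11-fold, at least 1.57-fold and at most 14.25-fold. Hspa1a, Hspa1b and Dnajb1 were each higher in 16 of 16, but Hsph1 only in 9 of 16 (median 1.34-fold, lowest 0.6-fold). For the constitutive members the median was 1.30-fold and the lowest 1.06-fold, also with 16 of 16 higher. Their highest was 2.49-fold, in metformin T or innate lymphoid-like cells (3.29 UMIs in the low and 8.21 in the high tercile). In the high tercile of dermal sheath-like cells, metformin cells held 1.40 inducible UMIs and control cells 4.44, and in the low tercile 0.417 and 0.761. In the high tercile of fibroblast-like cells, metformin cells held 0.928 and control cells 1.74, and in the low tercile 0.482 and 0.610. Metformin cells were below control in every tercile of both classes. The terciles were set within each library, and the median immediate early count in the low tercile was 3 in metformin and 9 in control for dermal sheath-like cells, and 6 and 12 for fibroblast-like cells. In T or innate lymphoid-like cells the high tercile held 3.93 inducible UMIs in metformin and 2.39 in control, the middle tercile 0.751 and 0.597, and the low tercile 0.510 and 0.594, so that metformin was not above control in the low tercile.

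**Figure D5:**
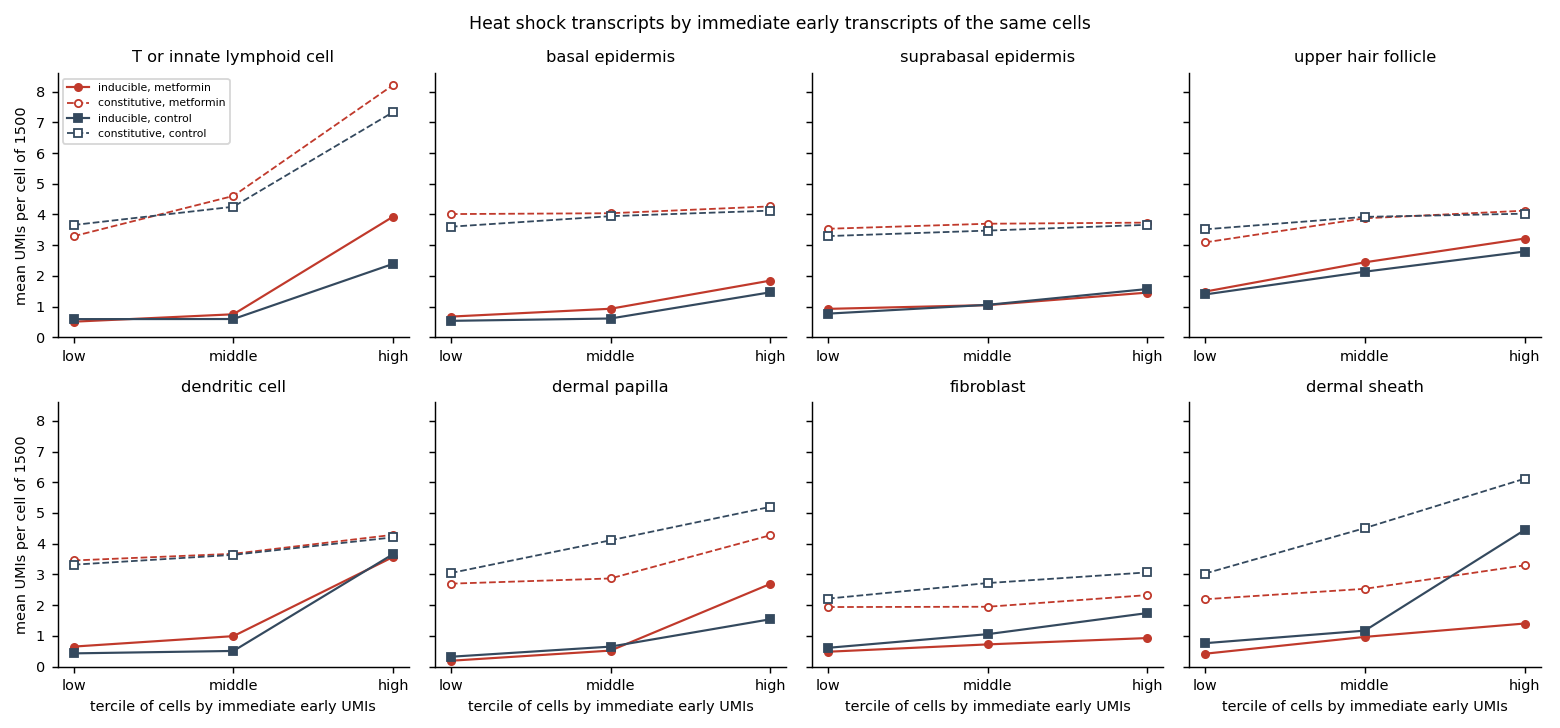
Mean UMIs per cell, thinned to 1500 UMIs, of the inducible (solid lines, filled symbols) and constitutive members (dashed lines, open symbols) in terciles of cells by immediate early UMIs, for the 8 main classes, with red circles for metformin and dark squares for control. Cells with fewer than 1500 UMIs are left out. In T or innate lymphoid-like cells the inducible sum reaches 3.93 in metformin and 2.39 in control in the high tercile, and in dermal sheath-like cells 1.40 and 4.44.

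Hspa1a and Hspa1b were often found in the same cells. In cells with at least 1500 UMIs, thinned to 1500, 67.4% (52.0 to 80.5) of the metformin T or innate lymphoid-like cells with Hspa1a also had Hspa1b, against 8.42% (6.23 to 11.1) of those without it. In control these shares were 48.6% (31.9 to 65.6) and 6.13% (4.23 to 8.54). Fibroblast-like cells had 44.9% (35.2 to 54.8) with and 14.5% (11.7 to 17.7) without Hspa1a in metformin, and 47.1% (42.4 to 51.7) and 19.1% (17.1 to 21.2) in control. Suprabasal epidermis-like cells showed the weakest link, with 44.5% (36.8 to 52.5) and 30.8% (27.5 to 34.3) in metformin, and 45.5% (37.5 to 53.7) and 34.1% (30.8 to 37.6) in control. Over the cells of a class and library, the correlation of the pair had a median of 0.47 (lowest 0.18, highest 0.74, 16 class and library pairs), while no other pair of members had a median above 0.14. Reads that cannot be told apart between the copies may add to such a link, and their number is not known from the counts.

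Over the 36 points of class and library, the genes most like Hspa1a were Hspa1b (r = 0.76), Nmt1 (0.71), Trappc2l (0.62), Snx3 (0.59) and Atp6v1g1 (0.59), among 2885 genes with a mean of at least 50 CPM. For Hspb1 they were Tanc1 (0.83), Id1 (0.82), Upf1 (0.79), Nxn (0.79) and Eea1 (0.77). For Hsp90ab1 they were the ribosomal protein gene Rpl3 (0.82), the chaperonin subunit Cct2 (0.81), Pa2g4 (0.79), Cacybp (0.79) and Rnf126 (0.78). Over the 36 points together Hspa1a thus had its paralog as its nearest pattern, whereas neither Hspb1 nor Hsp90ab1 had another member among its 5. In the metformin library alone Nmt1 (0.83) and Trappc2l (0.79) were more like Hspa1a than Hspa1b was (0.63). In control Hspa1b had 0.86, against 0.62 for Nmt1 and 0.51 for Trappc2l. Reads that cannot be told apart between the copies may add to their likeness here too. Likeness between members was not particular to the HSP70 pair, as Hsp90aa1 and Hspa8 each had the other at rank 2 (r = 0.84). Points of a class share its cell type and points of a library its depth, so these values describe likeness and no test was made.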

How the data were processed

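Droplet 3′ single-cell libraries were processed by the authors with Cell Ranger 4.0.0 per the file headers, and the submitters' notes name GRCm38 (mm10). The deposited values are raw UMI counts per gene and barcode (31053 genes). The metformin library had 12092 barcodes and 92341365 UMIs, and the control library 12108 and 71345558. The accompanying article describes another experiment, so only its limits on cells were taken over.

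From the deposited counts, cells were kept with a gene number between 300 and 3000, 800 or more UMIs, and a mitochondrial share no higher than 8%. The upper gene limit removed 19.4% of the metformin and 12.1% of the control barcodes. Doublets were called with Scrublet in scanpy 1.11.5 (expected rate 8%) and removed (3.26% in metformin, 2.43% in control). Both libraries were clustered together on 2000 variable genes without the 8 members (30 principal components, 20 neighbours, at least 3 shared, Leiden resolution 1, leidenalg 0.10.2). Clusters were named from marker lists of 26 types by fold (at least 1.5, in at least 10% of cells, at least 3 markers). The naming rule was set after the clusters were seen. T cell and innate lymphoid clusters were joined, and cluster 16 was left as keratinocyte without a finer name.

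UMIs were summed per class and library. Intervals are exact Poisson (levels), conditional binomial (ratios) or Clopper-Pearson (shares), computed with scipy 1.17.1, and the ratio step was tested on simulated counts. Named genes were all members, up to 4 genes with the highest and lowest ratios of each list, and the 5 genes most like Hspa1a, Hspb1 and Hsp90ab1. Leading genes of clusters, and the details given for single members, were chosen after their values were seen. The members and lists were chosen with earlier results of these data known. Coordinates are from GENCODE M21. Alternatives are given at the end.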

Additional observations from a re-analysis of the deposited data

Results flagged for a closer look

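3 inducible members were past 1.5-fold in opposite directions in different main classes, and these differences between classes were not tested, since each agent has 1 library. How many of all genes were past it in opposite directions was not counted, so this is not shown to be particular to the members. Of all genes tested, 3.53% were higher in T or innate lymphoid-like and 2.40% in basal epidermis-like cells. In fibroblast-like, suprabasal epidermis-like and dermal sheath-like cells 4.60%, 2.27% and 17.1% were lower. For Hspa1a, the metformin over control ratio was 1.74 in basal epidermis-like cells, 0.62 in fibroblast-like cells and 0.413 in dermal sheath-like cells. For Hspa1b it was 1.94 in T or innate lymphoid-like cells, 1.54 in basal epidermis-like cells and 0.601 in fibroblast-like cells. For Hsph1, the scarcest member, it was 2.08 in T or innate lymphoid-like cells, 0.659 in fibroblast-like cells and 0.647 in suprabasal epidermis-like cells. Not all of these were past 1.5-fold under every alternative processing. Hsph1 fell short in fibroblast-like cells under 4 alternatives (a log2 ratio of -0.39 with the members allowed in the clustering) and in suprabasal epidermis-like cells under 2 (-0.56 as a mean over cells and with doublets kept), Hspa1a in fibroblast-like cells under 1 (-0.45 as a mean over cells), and Hspa1b under 2 each in fibroblast-like cells and in basal epidermis-like cells.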

How the results depend on the processing

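No paired analysis was possible because each agent has 1 library, and no left-out replicate could be tried. Values here are log2 ratios of metformin over control. For the inducible sum, 55 of 68 alternative values stayed within counting error of the value given above and none reversed a value that was past 1.5-fold. In T or innate lymphoid-like cells (0.54) it was 0.71 without the 1% of cells with the most heat shock UMIs, 0.71 in cluster 7 and 0.28 in cluster 14. In basal epidermis-like cells (0.33) it was 0.27 without the dividing cluster. In fibroblast-like cells (-0.70) it was -0.49 as a mean over cells, -0.59 with doublets kept and -0.54 with separate clustering of the libraries, so that it was no longer past 1.5-fold in the first and the last. In dermal papilla-like cells (0.19) a mean over cells gave -0.14. In dendritic-like cells (0.11) a mean over cells gave 0.36 and separate clustering -0.26. In suprabasal epidermis-like cells (0.03) it was -0.16 with a wider cell filter, -0.10 with separate clustering and -0.046 at Leiden resolution 2. Hspb1 in T or innate lymphoid-like cells (-0.82) turned to 0.063 as a mean over cells, 0.17 with doublets kept and 0.91 in cluster 14. The cause was not tested. For members, 21 ratios differed by at least 1.5-fold. They include Hsph1 in dermal sheath-like cells, which had too few UMIs (45 in metformin and 42 in control) to be tested. Of 181 alternative values for these ratios, 178 kept their direction and 154 stayed past 1.5-fold. In fibroblast-like cells Dnajb1 fell short of it under 6 alternatives, Hsph1 and Hsp90aa1 under 4 each, Hspa1b under 2 and Hspa1a under 1. In dermal sheath-like cells the constitutive sum (-0.70) fell to -0.56 with a wider cell filter and -0.53 with separate clustering. Single clusters and the omission of dividing cells were chosen after seeing the data. With 1 library per agent, a difference between animals or preparations and one between agents cannot be told apart.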
